A study of Mus musculus with 3 samples.

Results

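The ATRX peaks described here lie on scaffolds of the mouse assembly that are not part of an assembled chromosome. They were chosen by sequence name alone, as every peak whose sequence is not a numbered chromosome, X, Y or the mitochondrial genome. They numbered 145 of 112153 peaks in the control list (0.129%, 0.109 to 0.152) and 176 of 105674 peaks in the MICAL1-FL list (0.167%, 0.143 to 0.193). The lists come from anti-ATRX ChIP-seq of mouse primary neurons, cultured from E15.5 to E17.5 embryos of the C57BL6/J strain. Lentivirus carrying mCherry (control) or MICAL1-FL was added on day 5 in vitro, cells were taken on day 14, and the design asks where ATRX lies with and without MICAL1-FL. Each condition had 1 ChIP library, so no difference between conditions could be tested. All intervals are 95% exact intervals (Clopper-Pearson for shares, Poisson for numbers, conditional binomial for ratios) that cover counting error only. The sources used here name neither the promoter of the transgenes nor any pooling of embryos, and peak lists hold no marker expression with which to check the labelled cell type. Peak names in the MICAL1-FL list carry the prefix TBC_M2, which does not name MICAL1-FL, so every MICAL1-FL value rests on the sample label.

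ATRX is a chromatin remodeller that works with the histone chaperone DAXX to place the histone variant H3.3 at repeats such as pericentromeric satellites and telomeres. Scaffolds outside the chromosomes are known to be of 2 kinds: unlocalised scaffolds belong to a known chromosome but have no position on it, and unplaced scaffolds have no known chromosome. Both are known to be rich in repeats and segmental copies that assembly could not join. Where several genomic copies are represented by a single reference stretch, reads of all copies can pile up there in ChIP and input alike, so the number of fragments at a peak need not count 1 site. No repeat annotation or scaffold sequence was used, and genes on the scaffolds were not analysed here. Positions and scaffold names are those of the deposited lists, for which the sources used here name no build.

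Each peak is described by its fold, -log10 p and q-value as the authors' peak caller gave them, and by 2 depths worked out from them. The ChIP depth is the number of fragments over the summit, and the expected depth is the background the caller compared it with. They were solved from the fold and p, and came out whole, within 0.05 of a fragment, for 145 of 145 and 176 of 176 scaffold peaks. No label states this relation, so both depths are an inference. The relation is the one known from a later major version of MACS than the 1.4.2 that the submitters' processing notes name, and which program wrote the lists is not stated. The lowest expected depth was 1.622 fragments for control peaks and 1.617 for MICAL1-FL peaks. Strict peaks are those with a q-value of 0.001 or less. Because expected depths differed between the lists, folds are set side by side below as the caller's values and not as a measure of change.

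Scaffold peaks were deep and often strict in both libraries, and the strict ones lay on a minority of the scaffolds. Strict peaks were 49 of the 145 control peaks (33.8%, 26.2 to 42.1) and 60 of the 176 MICAL1-FL peaks (34.1%, 27.1 to 41.6), where 0.156% and 0.169% of all peaks were strict. At the looser q-value limit of 0.05 the numbers were 58 and 73, where 0.416% and 0.38% of all peaks passed. The median ChIP depth was 31 fragments in the control and 11.5 with MICAL1-FL, against 5 for chromosome peaks of both lists. Without JH584304 it was 11 and 8 fragments, so the control value rests largely on that scaffold. The expected depth was high as well. It lay above the lowest value of the list at 82.1% of control (74.8 to 87.9) and 74.4% of MICAL1-FL scaffold peaks (67.3 to 80.7), where 37% and 31.5% of all peaks did so. The median fold was 2.29 and 2.675, beside 2.29 in both lists for chromosome peaks. Control folds matched those of chromosome peaks at the median while depths did not. Among scaffold peaks, JH584304 held the deepest in both lists.

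**Figure D1:**
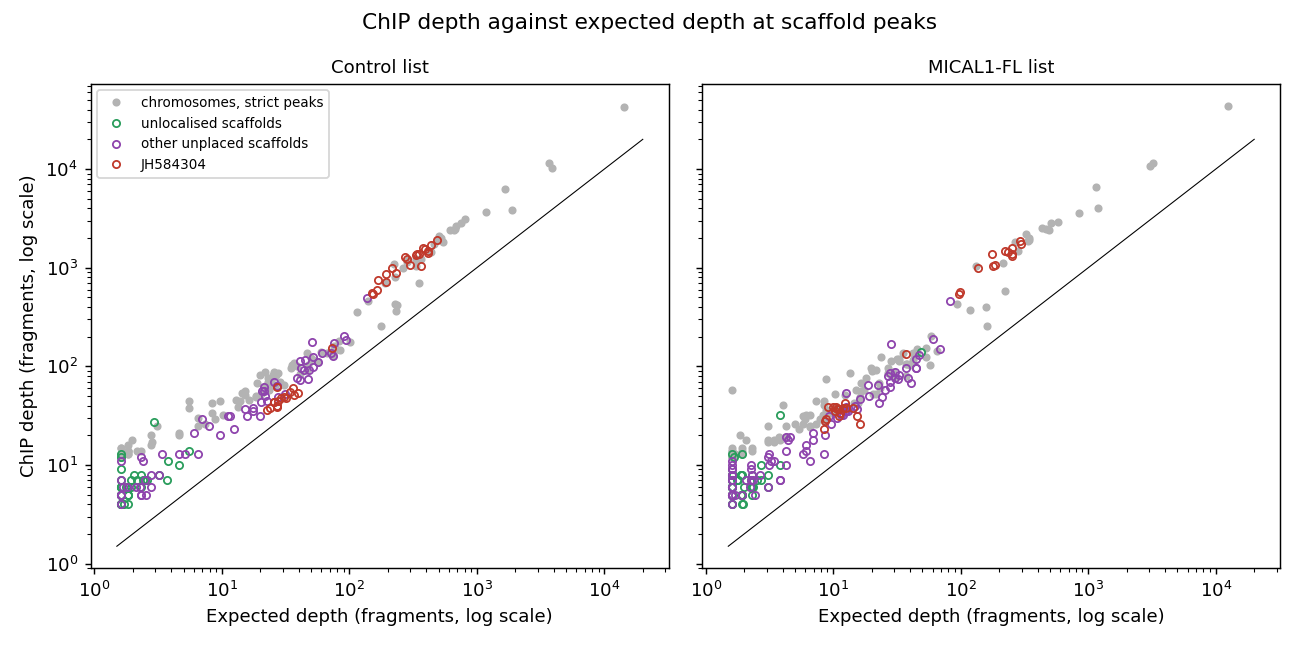
ChIP depth against expected depth at the summit of every scaffold peak, in fragments on log axes, with the strict chromosome peaks in grey and a line of equal depths. JH584304 peaks form 2 clouds in both lists, one of 541 fragments or more and one of 155 or fewer, and unlocalised peaks gather at the left, with a median expected depth of 1.73 fragments in the control and 1.655 with MICAL1-FL.

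Peaks fell on 33 scaffolds, 19 of them unplaced and 14 unlocalised. Both lists had a peak on 22, the control list alone on 7 and the MICAL1-FL list alone on 4. Scaffolds with peaks in 1 list alone held few of them, 14 control and 13 MICAL1-FL peaks in all, and no strict one. Strict peaks were gathered on 9 scaffolds in the control and 10 with MICAL1-FL, and all 9 of the control were among the 10. The tenth was GL456212, with a single strict MICAL1-FL peak that was 12 fragments deep.

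Taken as whole sets, unplaced and unlocalised scaffolds differed in most measures. On unplaced scaffolds 46 of 103 control peaks (44.7%, 34.9 to 54.8) and 55 of the 120 MICAL1-FL peaks (45.8%, 36.7 to 55.2) were strict. On unlocalised scaffolds these were 3 of 42 (7.14%, 1.498 to 19.5) and 5 of 56 (8.93%, 2.96 to 19.6). The unplaced peaks had a median ChIP depth of 52 and 32 fragments and a median width of 517 and 593.5 bp. The unlocalised peaks were 6 fragments deep at the median in both lists and 318 and 341 bp wide, close to the 334 and 332 bp of chromosome peaks. Without JH584304, 35.4% of control and 33.7% of MICAL1-FL unplaced peaks were strict. The unplaced peaks then had a median ChIP depth of 35 and 18 fragments and a median width of 421 and 458 bp. Every strict unplaced peak lay on JH584304 or on 6 scaffolds described below, and the other unplaced scaffolds had none. The 2 kinds of scaffold were not compared by a test, since peaks of 1 library are not replicates.

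Covered length differed more between the lists than peak number. The MICAL1-FL to control ratio of peak number was 1.21 (0.969 to 1.52) over all scaffolds, while chromosomes had 0.942 (0.934 to 0.9498). Scaffold peaks covered 103086 bp in the control and 178329 bp with MICAL1-FL, a ratio of 1.73, where chromosomes had 0.931. Most of the added length was on JH584304, which held 47760 and 99100 bp. Without it the ratio of covered length was 1.43 and that of peak number 1.36 (1.05 to 1.76). Peaks wider than 2000 bp numbered 10 in the control and 23 with MICAL1-FL, and 8 and 21 of these were on JH584304. On chromosomes they numbered 19 of 112008 control and 26 of 105498 MICAL1-FL peaks.

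**Figure D2:**
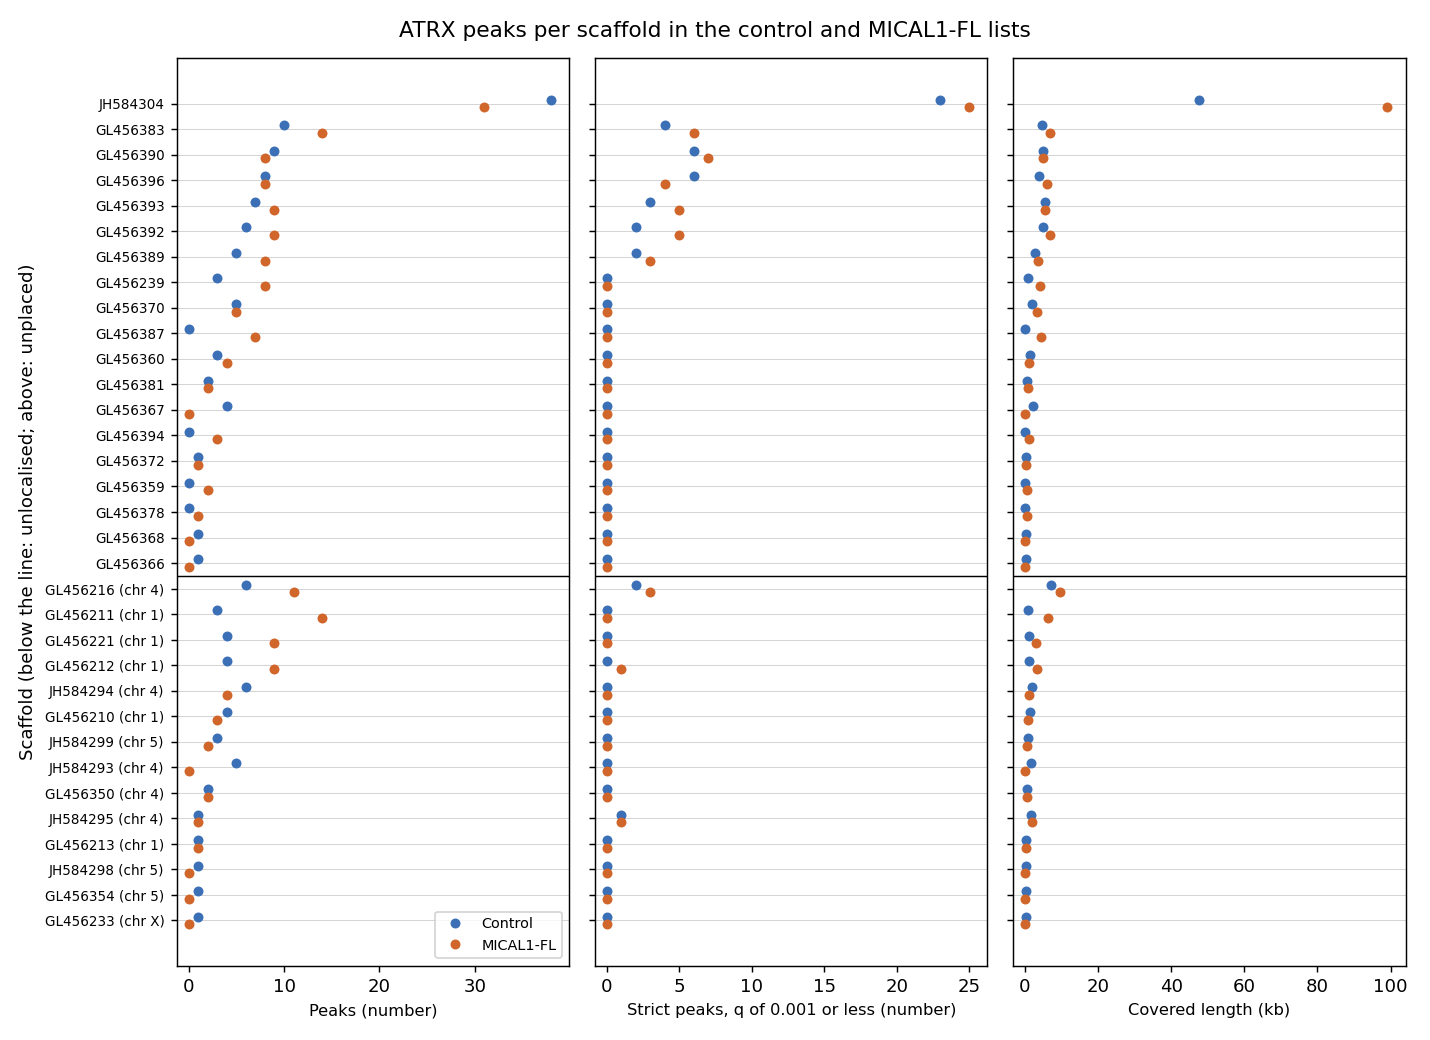
Number of peaks, number of strict peaks and covered length in kb for each of the 33 scaffolds, with control and MICAL1-FL lists as separate points and unlocalised scaffolds (with their chromosome) below the line. JH584304 leads in all 3 measures, and its covered length is 2.08 times as long in the MICAL1-FL list with fewer peaks, 31 against 38.

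Neighbouring peaks were close together on unplaced scaffolds. The median distance between neighbouring summits of a scaffold was 2292 bp in the control and 2466 bp with MICAL1-FL on unplaced scaffolds, and 23073 and 9478 bp on unlocalised ones. On chromosomes it was 12973 and 13906 bp. The gap from the edge of a peak to the next was at most 1 kb for 41 of 88 control and 59 of 104 MICAL1-FL gaps on unplaced scaffolds. On unlocalised scaffolds it was so for 3 of 28 and 7 of 46, and on chromosomes for 6426 of 111987 and 5442 of 105477. Without JH584304, the median summit distance on unplaced scaffolds was 2830 bp in the control and 2238 bp with MICAL1-FL. There, 16 of 51 control and 30 of 74 MICAL1-FL gaps were at most 1 kb. Scaffold lengths, which limit such distances, were not used. No gap was shorter than 247 bp in either list.

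The unplaced scaffold JH584304 held 38 control peaks (26.9 to 52.2) and 31 MICAL1-FL peaks (21.1 to 44.0), the most of any scaffold in both lists. Its peaks fell into 2 stretches of different depth, a division made after the values were seen. An interval with no peak in either list separated them, between bases 64404 and 68384 in the control and between 64771 and 68292 with MICAL1-FL. ChIP depth rose across it from 54 to 999 fragments in the control and from 42 to 998 with MICAL1-FL.

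The second stretch, up to base 114336, had like ChIP depths in both libraries. The control list had 21 peaks there, all strict, over 79.4% of 45903 bp, and the MICAL1-FL list 13, all strict, over 89.2% of 46045 bp. ChIP depth ranged from 541 to 1899 fragments in the control and from 542 to 1855 with MICAL1-FL. The lower number went with wider peaks. All 36426 bp covered in the control were covered in the MICAL1-FL list too, 7 of the 13 MICAL1-FL peaks spanned more than 1 control peak, and no MICAL1-FL gap lay within a control peak. Of the 20 gaps between control peaks, 8 were covered by a single MICAL1-FL peak. The gaps the lists had in common were 12, every gap of the MICAL1-FL list.

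Folds there were higher in the MICAL1-FL list and depths were not. The peak with the highest -log10 p on any scaffold, in both lists, covered 105577 to 109594 in the control and 105521 to 109621 with MICAL1-FL. It was 1899 fragments deep in the control and 1855 with MICAL1-FL, while the expected depth was 487.9 and 289.5 and the fold 3.89 and 6.39. The peak with the highest MICAL1-FL fold, 84683 to 86077, was 1360 fragments deep with a fold of 7.73, and the control peak it overlaps was 1340 fragments deep with a fold of 4.04. These pairs differ in the background they were set against and hardly in ChIP fragments, which were not scaled to library size. The control peak with the highest fold (4.64), at 99895 to 102061, was 1271 fragments deep and lay under a MICAL1-FL peak of 5015 bp that was 1726 fragments deep at its own summit. That summit need not be the same place.

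Over the 11 pairs of peaks of the second stretch whose summits lay within 250 bp of each other, the MICAL1-FL to control ratio of ChIP depth ran from 0.938 to 1.05, with a median of 0.995. The counting interval of the ratio included 1 at 11 of 11 pairs. The ratio of expected depth ran from 0.529 to 0.717, with a median of 0.622, and was below 1 at 11 of 11 pairs. The fold was higher in the MICAL1-FL list at all 11. The first assembled bases of chromosome 9, another stretch of deep peaks, gave median ratios of 0.999 for ChIP depth and 0.653 for expected depth over 15 pairs of strict peaks. That stretch also had fewer and wider peaks in the MICAL1-FL list, 16 against 25, with median widths of 1569 and 1032 bp. Its ratio of covered length was 1.22, beside 1.13 in the second stretch of JH584304. The other 39 pairs of strict chromosome peaks had medians of 0.921 and 0.675. Their ChIP depth was lower in the MICAL1-FL list at 27 pairs and higher at 11.

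**Figure D3:**
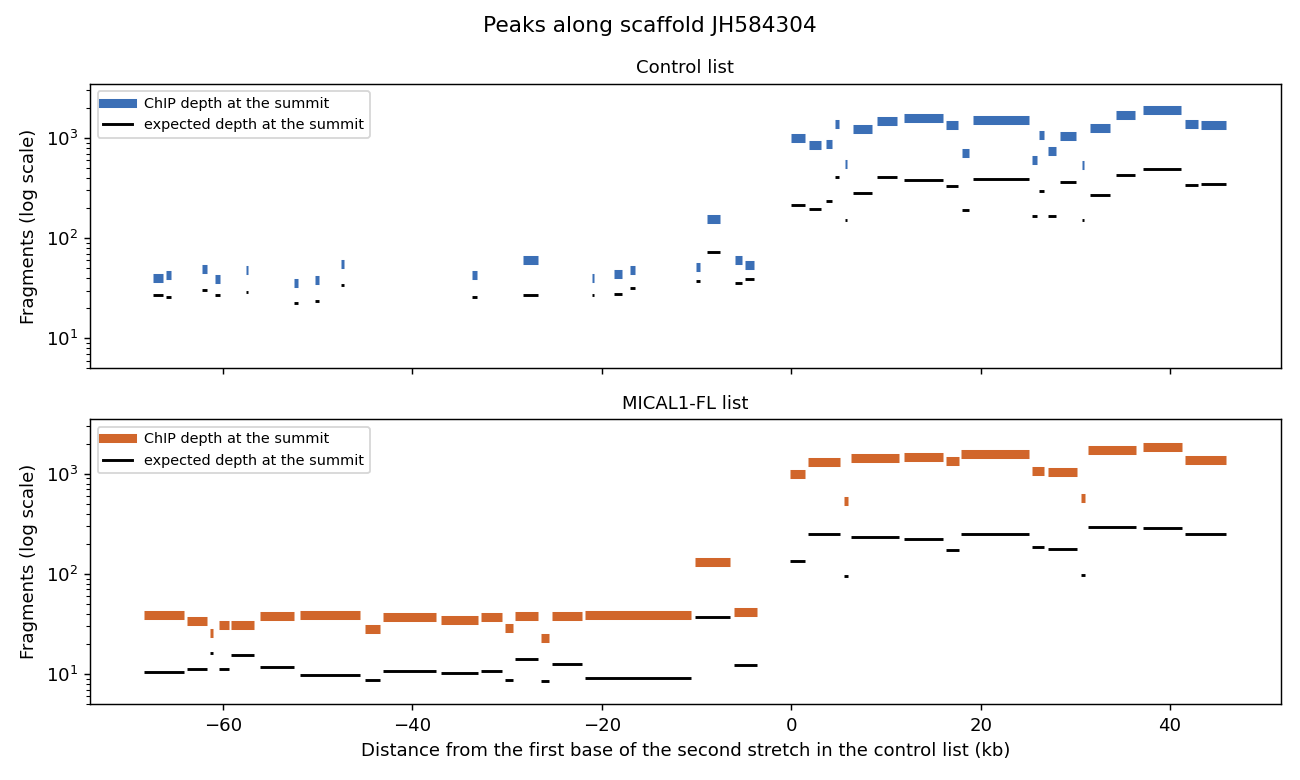
Peaks of JH584304 as segments of their own width, at the ChIP depth (colour) and expected depth (black) of their summit in fragments on a log axis, against the distance in kb from the first base of the second stretch. Right of 0 the coloured segments stand at like heights in both lists and the black ones lower in the MICAL1-FL list; left of 0 the MICAL1-FL peaks are wide and nearly touch, where control peaks are narrow and scattered.

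The first stretch was called almost without a break in the MICAL1-FL list and in scattered pieces in the control list. The control list had 17 peaks over 17.9% of the 63465 bp from its first to its last base there, and the MICAL1-FL list 18 peaks over 89.7% of 64692 bp. The covered length was 11334 and 58015 bp, a ratio of 5.12, at a ratio of peak number of 1.06 (0.515 to 2.19). MICAL1-FL peaks had a median width of 2450 bp against 541 bp, the widest covered 46601 to 57784, and no gap between them exceeded 635 bp. Of the control gaps the longest was 13531 bp. MICAL1-FL peaks covered 93.2% of the length of the control peaks there, and 16 of 17 control peaks overlapped one, which says little where 1 list covers nearly all of a stretch.

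The wider MICAL1-FL calls went with a lower expected depth and not with more ChIP fragments at the summits, and the part of the background in the widths was not tested. ChIP depth at the summits of the first stretch ranged from 36 to 155 fragments in the control (median 48) and from 23 to 133 in the MICAL1-FL list (median 37). The expected depth had a median of 27.7 fragments in the control and 10.98 with MICAL1-FL. The median fold was 1.58 and 3.05, and 2 of 17 control peaks and 12 of the 18 MICAL1-FL peaks were strict. At the 4 pairs with summits within 250 bp, the ratio of ChIP depth had a median of 0.784 (range 0.700 to 0.975) and that of expected depth 0.362 (0.289 to 0.508). Depth away from the summits is not in the lists, so the fragments along the stretch could not be compared. The deepest peak of the stretch lay near its end in both lists, at 59487 to 60829 in the control with 155 fragments and at 58204 to 61944 in the MICAL1-FL list with 133.

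Every other strict peak of the unplaced kind lay on 6 scaffolds: GL456383, GL456389, GL456390, GL456392, GL456393 and GL456396. They were grouped after their values were seen. They held 45 control and 56 MICAL1-FL peaks, of which 23 (51.1%, 35.8 to 66.3) and 30 (53.6%, 39.7 to 67.0) were strict. Their median ChIP depth was 61 and 39.5 fragments, at a median expected depth of 26.8 and 13.9. Each held between 2 and 7 strict peaks in either list. The deepest pair was on GL456392, where the control peak at 22074 to 23452 had 494 fragments and a fold of 3.59 and the MICAL1-FL peak at 21775 to 23511 had 458 fragments and a fold of 5.47. GL456389 held the highest MICAL1-FL fold of the group, 5.78 at 10459 to 10817 with 169 fragments, over a control peak at 10404 to 10916 with 176 fragments and a fold of 3.41.

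GL456383 held 10 control and 14 MICAL1-FL peaks over 4674 and 6957 bp. Of these, 9 control and 9 MICAL1-FL peaks overlapped, with 4028 bp in common, which is 86.2% of the control and 57.9% of the MICAL1-FL length. Its peak with the highest -log10 p was the same in both lists, at 34364 to 34761 with 203 fragments in the control and at 34347 to 34696 with 188 in the other list, with folds of 2.24 and 3.05. The highest control fold of GL456383, 3.78, was at 3874 to 4757 with 29 fragments. There the MICAL1-FL peak had 16 fragments and a fold of 2.38, so the order of the lists in fold was the opposite. The highest MICAL1-FL fold, 3.44 at 3127 to 3419, belonged to a peak of 8 fragments with none of the control list over it. Summits of the 9 pairs lay 2 to 177 bp apart.

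**Figure D4:**
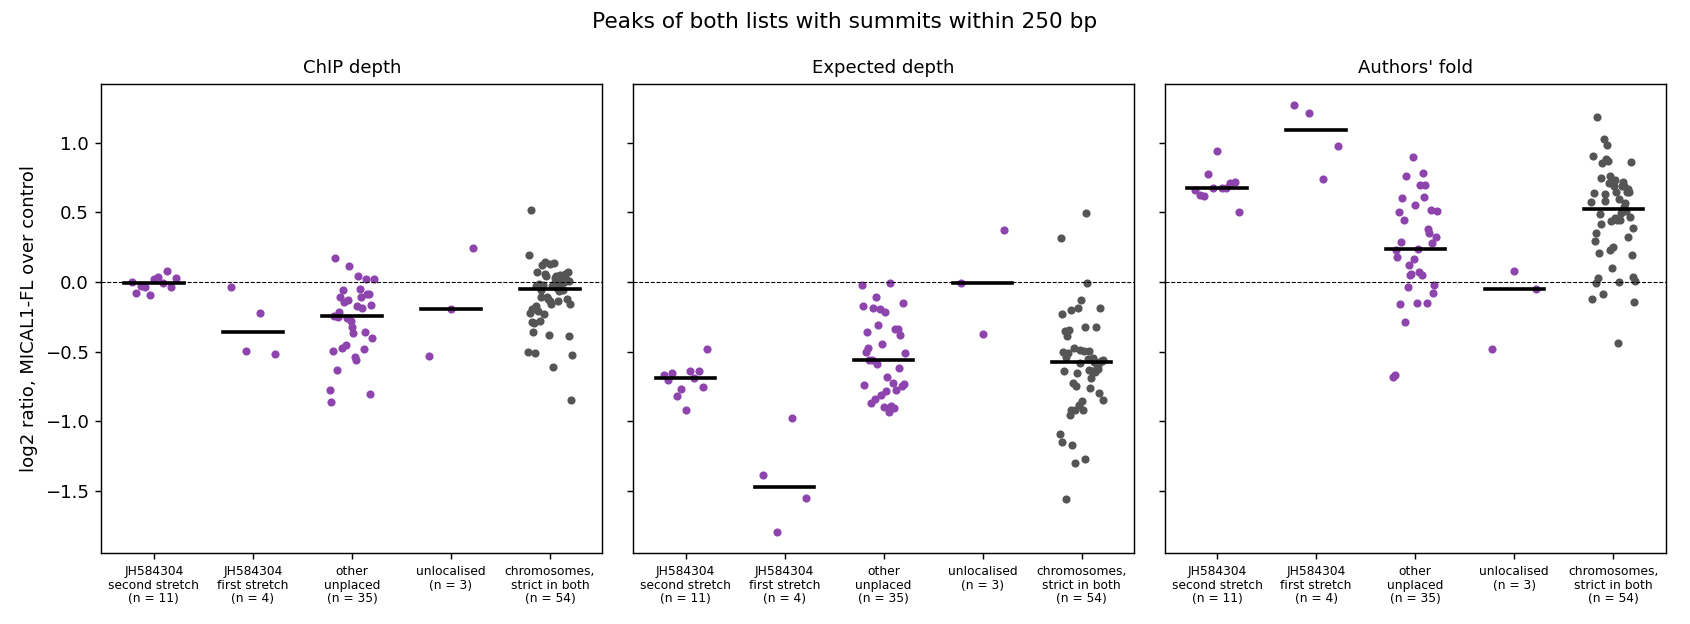
log2 ratios of MICAL1-FL over control for ChIP depth, expected depth and the authors' fold at pairs whose summits lie within 250 bp, by kind of sequence; each point is a pair, bars are medians and sideways offsets only separate points. In the second stretch of JH584304 the ChIP depth ratios lie between -0.09 and 0.08, and the expected depth ratios of all 11 pairs are at -0.48 or lower.

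Over all scaffolds 53 pairs had summits within 250 bp, 36.6% of control and 30.1% of MICAL1-FL peaks, where 4.5% and 4.77% of all peaks had such a summit. ChIP depth was lower in the MICAL1-FL list at 43 of them and higher at 10, with a median log2 ratio of -0.16 and a range from -0.86 to 0.25. The counting interval of the depth ratio lay wholly below 1 at 6 pairs, all on GL456383, GL456392, GL456393 and GL456396. The expected depth was lower in the MICAL1-FL list at 52 of 53 pairs, with a median log2 ratio of -0.64, and the fold was higher at 42. On unlocalised scaffolds there were 3 pairs, with expected depth ratios from 0.773 to 1.298, and the fold was higher at 1. On chromosomes, 54 pairs of strict peaks had median log2 ratios of -0.05 for ChIP depth and -0.58 for expected depth, the latter lower at 52 pairs. Of these 54, the counting interval of the depth ratio lay wholly below 1 at 9 pairs and wholly above 1 at 2 (0 of the 53 scaffold pairs). Their fold was higher in the MICAL1-FL list at 49. These are the strict pairs only. Over all chromosome peaks the median expected depth was the lowest value of the list, 1.622 and 1.617 fragments. Which input served each list is not stated, and its part in the folds and widths was not tested.

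Unlocalised scaffolds held few deep peaks, and those found in both lists were on scaffolds of chromosome 4. GL456216 had 6 control peaks (2.20 to 13.1) and 11 MICAL1-FL peaks (5.49 to 19.7), over 7252 and 9762 bp. Its broad peak at 31761 to 35879 had the highest fold of the whole control list, 7.07, with 27 fragments over an expected 2.96. The MICAL1-FL peak at 32066 to 36230 had 32 fragments over 3.84, a fold of 6.82, and the eighth rank by fold in its list. The summits were 18 bp apart, and the peaks were 4119 and 4165 bp wide. These expected depths lay above the lowest of the lists, and far below the 151 fragments or more (control) and 96.2 or more (MICAL1-FL) of the second stretch of JH584304. A neighbouring pair at 29356 to 29843 and 29275 to 29991 had 13 and 9 fragments, and was strict in the control list only.

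JH584295 carried a single peak in both lists, from 75 to 1878 in the control and from 24 to 1891 with MICAL1-FL. It had 12 and 13 fragments over the lowest expected depth, with folds of 4.96 and 5.35, and was strict in both. The control peak was the strict scaffold peak nearest to the threshold (q of 0.000706), and the first one beyond it was on GL456393 (q of 0.00155). In the MICAL1-FL list the nearest were on GL456383 (q of 0.000799) and JH584304 (q of 0.00113). Strict peaks with an expected depth below 5 fragments numbered 3 of 49 in the control (6.12%, 1.28 to 16.9) and 5 of 60 in the MICAL1-FL list (8.33%, 2.76 to 18.4). On chromosomes they were 33 of 126 (26.2%, 18.8 to 34.8) and 33 of 119 (27.7%, 19.9 to 36.7). Without JH584304, scaffolds had 3 of 26 in the control (11.5%, 2.45 to 30.15) and 5 of 35 with MICAL1-FL (14.3%, 4.81 to 30.3). Those intervals overlap the chromosome ones. A MICAL1-FL peak of GL456216 at 49127 to 49372, with 139 fragments over 48.4 and a q-value far below the threshold, had no control peak over it.

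GL456211, an unlocalised scaffold of chromosome 1, had 3 control peaks (0.619 to 8.77) and 14 MICAL1-FL peaks (7.65 to 23.5), none strict and none overlapping, where 0.156% and 0.169% of all peaks were strict and 6.89% and 7.3% overlapped. With so few peaks, nothing is read from these zeros. The ratio was 4.67 (1.302 to 25.3), and 33 scaffolds were looked at. Its deepest peaks had 10 fragments in the control and 8 with MICAL1-FL. The peak of highest fold was at 137004 to 137319 in the control (2.54) and at 162094 to 162784 in the MICAL1-FL list (3.44). Together the 5 unlocalised scaffolds of chromosome 1 held 16 control and 36 MICAL1-FL peaks with no overlap, and those of chromosome 4 held 20 and 18 with 5 overlapping in each list. Set beside the same shares of all peaks, these numbers are too small to read a lack of overlap from. Among scaffolds picked after their values were seen, GL456387 had 7 MICAL1-FL peaks and 0 control peaks (0 allows up to 3.69), GL456367 had 4 control and 0 MICAL1-FL peaks, and JH584293 had 5 and 0. Of these 3, GL456367 had the deepest peak, at 37 fragments.

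Overlap between the lists was most frequent on the unplaced scaffolds, where peaks were deepest. At least 1 bp was shared by 86 of 145 control peaks (59.3%, 50.9 to 67.4) and 72 of the 176 MICAL1-FL peaks (40.9%, 33.6 to 48.6), where 6.89% and 7.3% of all peaks did so. By length, 78183 bp were common, 75.8% of the control and 43.8% of the MICAL1-FL length. On unplaced scaffolds without JH584304 the shares were 67.7% (55.0 to 78.8) and 49.4% (38.7 to 60.2), and on unlocalised scaffolds 11.9% (3.98 to 25.6) and 8.93% (2.96 to 19.6). Overlapping pairs were found on 11 of the 33 scaffolds. Chance overlap depends on how much of a scaffold the peaks cover and was not worked out.

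All 49 strict control peaks overlapped a MICAL1-FL peak (100%, 92.7 to 100), and so did the 26 that lie outside JH584304. Of the 60 strict MICAL1-FL peaks 47 overlapped a control peak (78.3%, 65.8 to 87.9). On chromosomes the shares were 90 of 126 (71.4%, 62.7 to 79.1) and 85 of 119 (71.4%, 62.4 to 79.3). The 13 strict MICAL1-FL peaks with no control peak over them were spread over 7 scaffolds, with 5 in the first stretch of JH584304 and 2 each on GL456216 and GL456392. In this group the peak of GL456216 at 49127 to 49372 was the deepest, and the next by -log10 q was on GL456396 at 20744 to 21138, with 54 fragments over 12.7. Without replicate libraries, absence from the control list is not evidence of a difference.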

How the data were processed

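ATRX ChIP-seq peak lists of 1 control (mCherry) and 1 MICAL1-FL library of mouse primary neurons were used; the input of control neurons named in the labels was not analysed here. The submitters' processing notes list MACS 1.4.2, Bowtie 1.3.0, ChIPseeker 1.26.2 and SAMtools 1.9 without roles. Genome build and calling threshold are not stated. The largest p given by the peak caller was 0.0498 among control peaks and 0.0496 among MICAL1-FL peaks, so weak calls were kept for both libraries. Shares and medians given for all peaks or for chromosome peaks include these weak calls. In every peak, the deposited score equalled 10 times the -log10 p with decimals dropped. The fold (a ratio over background), the -log10 p and the -log10 q are deposited values of the authors' peak caller, called per library.

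Fold was taken as (ChIP depth + 1)/(expected depth + 1) p as the Poisson tail above that depth, and both depths were solved from them. On 3000 simulated peaks made with this same relation, 100.0% of depths were recovered within 0.1 percent. That checks the solving only, and not whether the authors' peak caller used the relation. Library totals are not in the lists, so ChIP depths were compared without scaling to library size. Depth is known at summits only. Overlap meant at least 1 bp; pairs were mutually nearest summits within 250 bp. Scaffolds with 10 or more peaks in either list were described one by one, with their peaks of highest fold and -log10 p; others are named as picked after their values were seen. Alternatives varied q-values, depth, overlap, joining and scaffolds. Leaving JH584304 out of further results, and summits within 100 bp, were added after seeing the data. The members and lists were chosen with earlier results of these data known. Work was done in Python 3.11.15 with NumPy 2.4.6, pandas 2.3.3, SciPy 1.17.1 and matplotlib 3.10.9. No scaffold sequence was used, and the gene table in use (GRCm38.p6) names none of these scaffolds.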

Additional observations from a re-analysis of the deposited data

How the results depend on the processing

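No paired analysis was possible because each condition had 1 library. Values are given as control, then MICAL1-FL. Of 145 and 176 scaffold peaks, 58 and 73 had a q-value below 0.05 and 49 and 60 one of 0.001 or less. The share of overlapping peaks, 59.3% and 40.9%, was 35.9% and 29.5% with the stricter mutual overlap (0.5 of both peaks), 36.6% and 30.1% with summits within 250 bp, 100% and 78.3% for strict peaks of the list, 87.8% and 58.3% for strict peaks of both lists, 50.6% for MICAL1-FL with peaks up to 1 kb apart, and 45.8% for the control without JH584304. The control summit distance was 2218 bp for strict peaks, and the MICAL1-FL edge to edge gap 1724 bp. With JH584304 left out of the scaffolds and of the total, scaffolds held 17.1% and 22.7% of strict peaks, in place of 28.0% and 33.5%. Of all strict peaks, the scaffolds without JH584304 held 14.86% and 19.55%. The median ChIP depth without JH584304 was 11 and 8 fragments. Strict peaks alone covered 60328 and 115447 bp, with median folds of 3.41 and 3.15. The q-value and JH584304 alternatives keep fewer peaks, and the overlap and gap alternatives measure the same peaks by another rule. The remaining 20 alternative values stayed within 1.5 times the main count or within the 95% interval of the main value, among them the matched ratios of ChIP and expected depth without JH584304 and with summits within 100 bp. Joining peaks within 250 bp, one of these alternatives, could hardly change the numbers, since no gap was shorter than 247 bp. Most unlocalised peaks were a few fragments deep, where presence in 1 list alone is not informative.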

Other observations

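Some peaks began near the first base of a scaffold. The last bases of scaffolds were not looked at, and the number expected by chance was not worked out. Within the first 500 bases, 6 control and 7 MICAL1-FL peaks began, 3 of them strict in each list, and 4 scaffolds had such a peak in both lists: GL456239, GL456392, GL456393 and JH584295. On GL456392 it covered 254 to 1037 with 171 fragments in the control and 191 to 1004 with 118 in the MICAL1-FL list.

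Ranked by -log10 p within each list, none of the first 10 peaks lay on a scaffold. Among the first 50 peaks, 22 of the control (44.0%, 29.99 to 58.8) and 17 of the MICAL1-FL list (34.0%, 21.2 to 48.8) did, of which 21 and 14 were on JH584304. Among the first 25 the scaffold peaks were 8 and 7, and among the first 100 they were 34 and 33.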
